A study of Rattus norvegicus with 8 samples.

Results

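The genes described here are Pros1, Gas6, Mertk, Axl, Tyro3, Mfge8 and Cd36, which encode the TAM receptors, the proteins that bridge dying cells to phagocytes, and a scavenger receptor. They were chosen with earlier results of these data known, so the shares set beside their counts below are a description and not independent support. They were taken by name, as every probe set whose only gene symbol in the annotation of the array was 1 of these 7. This gave 10 probe sets of 31042 non-control probe sets, and 7 genes of 14217 with a symbol. Gas6 had 3 probe sets, Mertk had 2, and each other gene had 1. Whole testes of adult rats of the Sprague-Dawley strain were studied in 3 groups: untreated rats (control, 3 arrays), rats given Adjudin once by gavage at 50 mg/kg and killed 8 h later (2 arrays), and rats given the same dose and killed 4 d later (3 arrays). Adjudin is known to loosen the hold of Sertoli cells on developing germ cells, which are then shed. The labels name no vehicle group, and they do not say that each array held a separate animal. The p-values therefore measure only the spread between these arrays, which may be technical.

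Cells that die by apoptosis expose phosphatidylserine on their outer membrane. Protein S (Pros1) and Gas6 bind it through a domain made by the vitamin K cycle, and with their other end they activate receptor tyrosine kinases of the TAM family, named for the initials of Tyro3, Axl and Mertk. Gas6 activates all of them, and protein S activates Tyro3 and Mertk. Mfge8 bridges phosphatidylserine to integrins of the phagocyte, and Cd36 is a scavenger receptor for oxidised lipids and dying cells. In the testis, Sertoli cells and resident macrophages take up dying germ cells and shed residual bodies, and mice that lack all TAM receptors are known to lose germ cells.

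The promoters of Pros1, Mfge8 and Axl are printed because these genes were higher at 4 d than in control. Each run holds the 250 bases before the RefSeq start on build GRCr8, read 5′ to 3′ on the strand of the gene, with GC boxes (GGGCGG or its complement CCGCCC) in capitals. Pros1 lies at chr11:13677049-13677298 on the plus strand, Mfge8 at chr1:142489432-142489681 on the minus strand and Axl at chr1:90424010-90424259 on the minus strand.
Pros1: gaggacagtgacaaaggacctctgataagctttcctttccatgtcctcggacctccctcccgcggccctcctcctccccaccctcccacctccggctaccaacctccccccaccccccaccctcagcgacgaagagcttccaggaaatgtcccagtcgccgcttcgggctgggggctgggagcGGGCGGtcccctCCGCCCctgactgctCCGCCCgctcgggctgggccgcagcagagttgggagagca
Mfge8: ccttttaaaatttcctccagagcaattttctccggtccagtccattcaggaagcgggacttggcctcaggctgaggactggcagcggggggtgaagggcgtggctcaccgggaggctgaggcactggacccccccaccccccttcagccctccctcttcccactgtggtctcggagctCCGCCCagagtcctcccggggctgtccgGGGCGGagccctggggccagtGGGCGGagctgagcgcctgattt
Axl: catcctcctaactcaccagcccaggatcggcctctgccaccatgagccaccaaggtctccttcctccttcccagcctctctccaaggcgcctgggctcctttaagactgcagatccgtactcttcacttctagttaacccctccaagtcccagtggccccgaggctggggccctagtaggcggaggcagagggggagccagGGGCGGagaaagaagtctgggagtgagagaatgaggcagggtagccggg
The start used lies 989 bases inside the gene record for Pros1 and 114 bases inside it for Axl, so the window of Pros1 lies within its record, and that of Mfge8 ends at the outer end of its record. The GC content was 68.4% for Pros1, 66.0% for Mfge8 and 61.6% for Axl, against a median of 51.2% over all windows. All 7 genes had a window, and 6 of 7 held a GC box on either strand, against 30.5% of 33469 windows of the same length. Cd36, whose start lies 37494 bases inside its gene record, held no GC box. It was the only 1 of the 7 with a match to the TATA box letters (TATAAA or TTTATA), found in 12.9% of all windows. That match was to the reverse complement only, so the window of Cd36 held no TATA box on the strand of the gene. A CCAAT box (CCAAT or ATTGG, 34% of all windows) and an AP-1 motif (TGACTCA or TGAGTCA, 4.05%) were found in 0 of 7. The nuclear receptor half-site (AGGTCA or TGACCT, 14.1% of all windows) was found in 1, that of Gas6. These matches describe the letters of the windows and were not tied to any binding measurement.

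Each probe set had 1 signal value per array, on a linear scale and with every array scaled to the same trimmed mean. A probe set was tested where the signal reached 100 on at least 2 arrays, and log2(signal + 32) was compared in limma with Benjamini-Hochberg adjustment over 19785 probe sets, with a threshold of 0.05. Changes of dim genes are understated on this scale. On single arrays, 51.6% to 59.0% of non-control probe sets had a signal of 100 or more, and r between arrays of 1 group was 0.954 to 0.978. Precision was limited by the number of arrays. Hybridisation took place in 3 runs. Each group had 1 array in run 1 and 1 in run 3, while run 2 held only control replicate 2 and 4 d replicate 2 and used another version of the fluidics protocol. Germ cell transcripts marked the tissue as testis, since the summed signal of 13 genes of elongating and elongated spermatids was 276559 to 415183 in control. It was 193413 to 272296 at 4 d, when 5 of the 13 were lower and 0 were higher, beside 5.19% and 7.63% of all genes. In a fit with a block for the run, 13 of the 13 were lower, beside 11.9% of all genes.

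The comparison of 4 d with control addressed how these genes stood while germ cells were being lost, the subject that the series names. Of the 9 tested probe sets, 3 were higher and 0 were lower in limma, against 6.16% higher and 3.73% lower of all probe sets tested. Those 3 were Pros1, Mfge8 and Axl: a TAM ligand, the integrin bridge and 1 of the TAM receptors. At an unadjusted p under 0.05 the counts were 5 higher and 1 lower, beside 14% and 8.77% of all probe sets. The median log2 change of the 9 was 0.37, beside 0.04 over all probe sets. In a fit with a block for the run, 4 were higher and 1 was lower, beside 13.3% and 9.19% of all probe sets, because Cd36 and 1 probe set of Gas6 passed as well.

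Pros1, the vitamin K-dependent protein S that also acts as an anticoagulant in plasma, had a signal of 325, 309.9 and 355 on control arrays 1 to 3. At 8 h the signal was 299.9 and 352, and at 4 d it was 839.9, 743 and 1070.2. All 4 d arrays lay above all arrays of the other groups, and the 8 h arrays lay on either side of the control median. The group means were 329.7 ± 22.8 (SD, n = 3) in control, 326 ± 36.7 (SD, n = 2) at 8 h and 884 ± 168 (SD, n = 3) at 4 d. Pros1 was 2.51-fold higher at 4 d than in control on the fitted scale, with a log2 change of 1.33 (SE 0.17, 95% interval 0.95 to 1.70, limma adjusted p = 0.0013). The change held the same direction in every run, with log2 differences of 1.29 in run 1, 1.18 in run 2 and 1.51 in run 3.

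**Figure D1:**
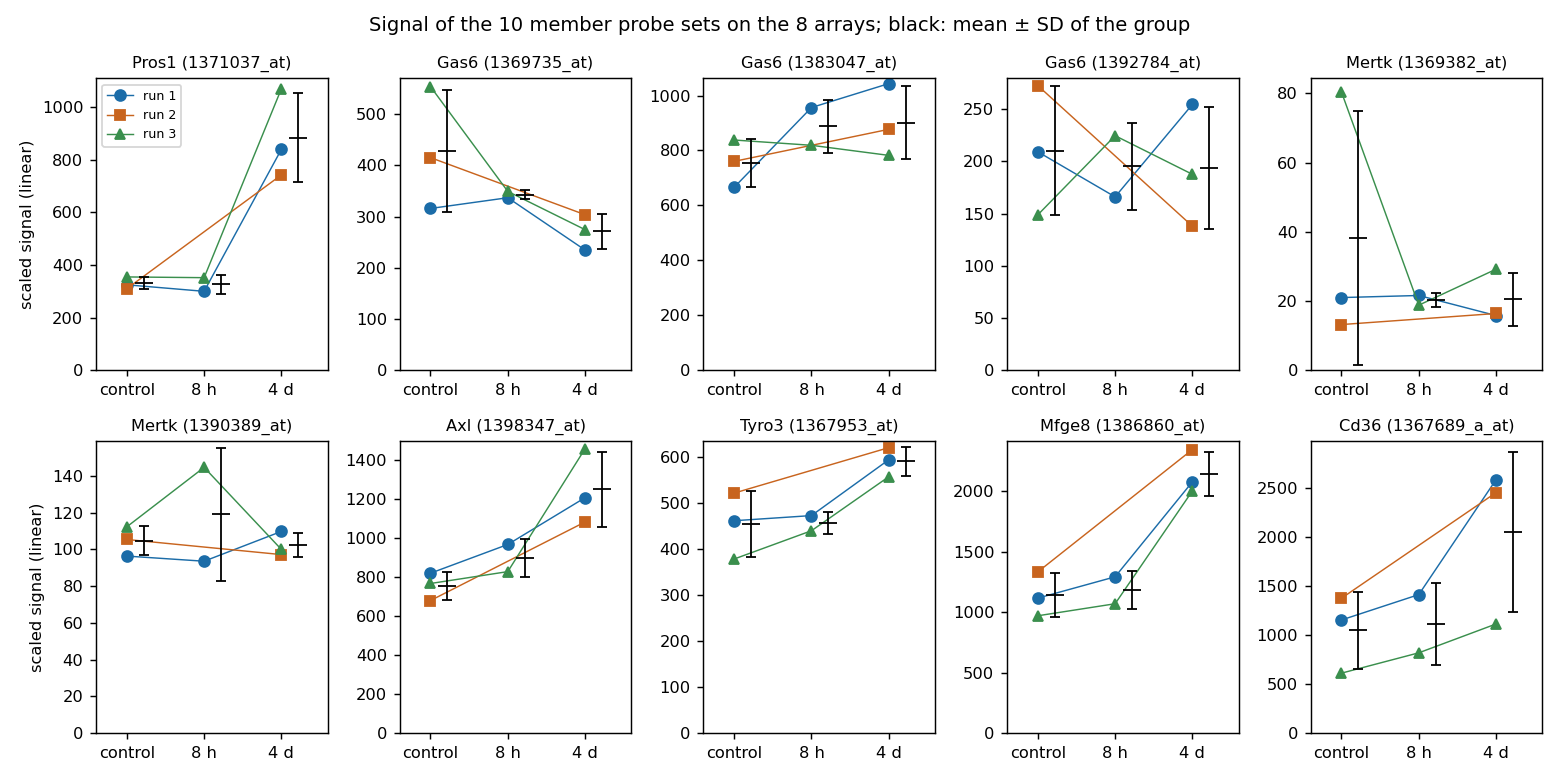
Scaled signal (linear axis from 0) of the 10 probe sets of the 7 genes on the 8 arrays, by group, with a colour and a line for each hybridisation run and the group mean ± SD in black. Pros1 sits between 299.9 and 355 on all control and 8 h arrays and between 743 and 1070.2 at 4 d, while Cd36 overlaps between groups and is lowest in run 3 in each group.

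Gas6, the other TAM ligand, gave no single direction. The probe set 1369735_at read 316, 415 and 554 in control, 337 and 349 at 8 h, and 235, 304 and 274.5 at 4 d. Its 4 d arrays lay below all other arrays, with a log2 change of -0.58 (SE 0.21) that missed the threshold (limma adjusted p = 0.119) and passed it in the blocked fit (adjusted p = 0.028). The probe set 1383047_at read 666, 760.3 and 838 in control, 956 and 819 at 8 h, and 1043, 877 and 782 at 4 d. Here the groups overlapped, the log2 change at 4 d was 0.24 (SE 0.16, limma adjusted p = 0.409), and its sign differed between the runs, at 0.62, 0.20 and -0.10. The third probe set, 1392784_at, read 209, 273 and 149 in control, 166 and 225 at 8 h, and 255, 138 and 188 at 4 d. Its groups overlapped as well, and its log2 change at 4 d was -0.10 (SE 0.27, 95% interval -0.70 to 0.49, limma adjusted p = 0.876). The probe sets of Gas6 therefore disagreed in sign, and where in the transcript each lies was not analysed here.

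Mfge8, the milk fat globule protein that links phosphatidylserine to integrins, read 1116, 1333 and 969.6 in control and 1292 and 1069 at 8 h. At 4 d it read 2078.5, 2346 and 2003, so the 4 d arrays lay above all arrays of both other groups. The means were 1139 ± 183 (SD, n = 3) in control, 1181 ± 158 (SD, n = 2) at 8 h and 2142 ± 179.9 (SD, n = 3) at 4 d. Mfge8 was 1.87-fold higher at 4 d than in control, with a log2 change of 0.90 (SE 0.15, 95% interval 0.57 to 1.24, limma adjusted p = 0.00542). The log2 differences within runs 1, 2 and 3 were 0.88, 0.80 and 1.02.

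Axl, a TAM receptor that Gas6 activates, read 820.3, 679.9 and 767 in control, 968 and 828 at 8 h, and 1208, 1083 and 1459.6 at 4 d. The groups did not overlap and stood in the order control, 8 h, 4 d, although the gap between the highest control array and the lowest 8 h array was small. The means were 756 ± 70.9 (SD, n = 3) in control, 898 ± 98.6 (SD, n = 2) at 8 h and 1250.4 ± 192 (SD, n = 3) at 4 d. Axl was 1.62-fold higher at 4 d than in control (log2 change 0.70, SE 0.15, 95% interval 0.36 to 1.03, limma adjusted p = 0.0181), and the log2 differences within runs were 0.54, 0.65 and 0.90. The call was lost with the medians of the tested probe sets made equal across arrays (adjusted p = 0.0729). It was also lost without control replicate 2 (0.0707), 4 d replicate 1 (0.0652) or 4 d replicate 3 (0.0622), and without run 2 (0.0925).

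Tyro3, a TAM receptor for both protein S and Gas6, read 462, 522 and 379 in control, 473 and 440.4 at 8 h, and 595, 621 and 558 at 4 d. All 4 d arrays lay above all others. The log2 change at 4 d was 0.37 (SE 0.15, 95% interval 0.02 to 0.71), 1.29-fold, and it missed the threshold in limma without a block (adjusted p = 0.187) and in the blocked fit (adjusted p = 0.053). The log2 differences within runs were 0.34, 0.24 and 0.52.

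Mertk, the TAM receptor best known for phagocytosis by macrophages and the retinal pigment epithelium, was dim. The probe set 1369382_at read 21.0, 13.2 and 80.4 in control, 21.6 and 18.8 at 8 h, and 15.8, 16.4 and 29.2 at 4 d. It was under the signal minimum on all 8 arrays and was not tested, and its highest value was on control replicate 3. The probe set 1390389_at read 96.4, 105 and 112 in control, 93.6 and 145 at 8 h, and 109.8, 97.2 and 99.96 at 4 d, so it reached 100 on 4 arrays. Its groups overlapped, and its log2 change at 4 d was -0.03 (SE 0.23, 95% interval -0.54 to 0.49, limma adjusted p = 0.972). At signals this low a change inside that interval is not excluded.

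Cd36, the scavenger receptor, read 1155, 1378 and 611 in control, 1415 and 819 at 8 h, and 2591, 2458 and 1114 at 4 d. The groups overlapped, because the arrays of run 3 were the lowest of each group. The log2 change at 4 d was 0.93 (SE 0.37, 95% interval 0.10 to 1.77, 1.91-fold) and missed the threshold without a block (limma adjusted p = 0.168). A fit that takes the run as a block gave the same change with an SE of 0.11 and an adjusted p of 0.000248. Within runs 1, 2 and 3 the signal at 4 d was 2.24, 1.78 and 1.82 times that of the control array. Without control replicate 3, which lies in run 3, the log2 change was 0.60, and over all single arrays left out it was 0.60 to 1.32.

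Groups that did not overlap were counted as well. At 4 d against control, 4 of the 9 tested probe sets lay wholly above control and 1 wholly below, beside 17.5% and 11.8% of all probe sets tested. The 4 were Pros1, Mfge8, Axl and Tyro3, and the 1 was Gas6 1369735_at.

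**Figure D2:**
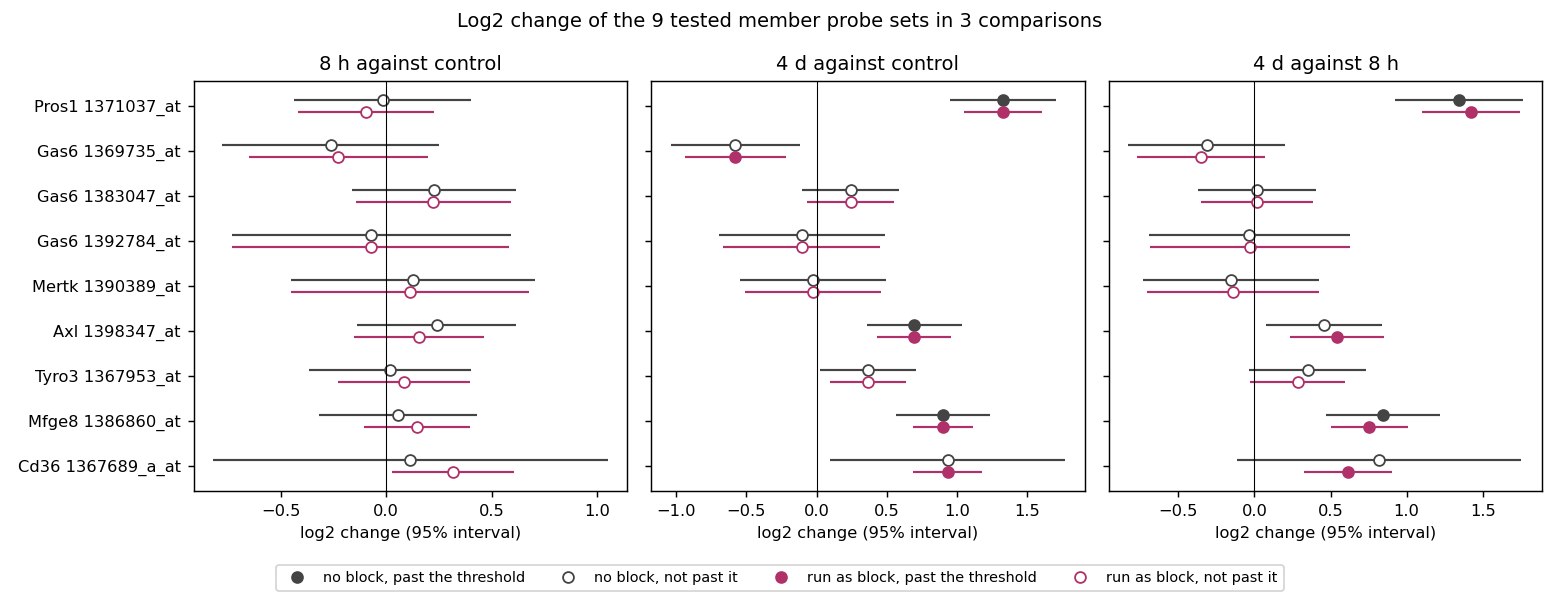
Log2 change (horizontal axis) with its 95% interval for the 9 tested probe sets in the 3 comparisons, without a block (grey) and with the run as a block (red), filled where the adjusted p was below 0.05. At 4 d against control Pros1, Mfge8 and Axl are filled in both fits, Cd36 and Gas6 1369735_at only with the block, and no point is filled at 8 h against control.

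The early time was compared with control next. None (0) of the 9 tested probe sets passed in limma, 0 had an unadjusted p under 0.05, and the lowest adjusted p was 0.9999, while 0.0657% of all probe sets passed (13, with 773 at an unadjusted p under 0.05). The log2 change of Pros1 was -0.02 with a 95% interval of -0.44 to 0.40, which lies wholly below the interval at 4 d. That of Mfge8 was 0.06 (-0.32 to 0.43), that of Axl 0.24 (-0.14 to 0.62), that of Tyro3 0.02 (-0.37 to 0.40) and that of Cd36 0.11 (-0.82 to 1.05). Axl was the 1 probe set of the 9 whose 8 h arrays lay wholly above control, beside 7.32% of all probe sets. In the blocked fit 0 of the 9 passed as well, while 53 of all probe sets were higher and 2 were lower. The log2 change of Cd36 at 8 h was 0.32 there (95% interval 0.03 to 0.61, limma adjusted p = 0.523). Cd36 was the 1 probe set of the 9 with an unadjusted limma p under 0.05 in that fit (0.0351). Only 2 arrays stood at 8 h, so changes within these intervals are not excluded. The intervals are not limits of detection, since p was adjusted over all probe sets tested.

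The comparison of 4 d with 8 h tested the difference between the times directly, and it shares its 4 d arrays with the comparison against control. Of the 9, 2 were higher at 4 d and 0 were lower in limma, beside 3.58% and 2.47% of all probe sets, and 3 were higher and 0 lower at an unadjusted p under 0.05, beside 11.1% and 7.51%. Pros1 was 2.54-fold higher than at 8 h (log2 difference 1.34, SE 0.19, limma adjusted p = 0.00406) and Mfge8 was 1.80-fold higher (0.85, SE 0.17, adjusted p = 0.0183). The call for Mfge8 was lost when either 8 h array was left out (adjusted p = 0.0576 without replicate 1 and 0.176 without replicate 2). It was also lost without 4 d replicate 1 (0.0663), without 4 d replicate 2 (0.063) and without run 2 (0.0783). Axl had a log2 difference of 0.46 (adjusted p = 0.171), Cd36 of 0.82 (0.348) and Tyro3 of 0.35 (0.322), all from limma and none past the threshold. That of Cd36 was 0.435 without 8 h replicate 2. In the blocked fit 4 were higher, beside 8.57% of all probe sets, since Axl (log2 difference 0.54, adjusted p = 0.0253) and Cd36 (0.62, adjusted p = 0.01) passed too.

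The other genes of apoptotic cell clearance were followed in 7 lists, in which a gene is represented by its brightest tested probe set. These lists too were chosen with earlier results of these data known, so their counts are a description. Of 127 genes listed, 86 were tested, and 30 were higher and 1 was lower at 4 d than in control, beside 7.63% and 5.19% of all 11241 genes. In the blocked fit the counts were 42 and 3, beside 15.3% and 11.9%. The same shares of all genes, for each fit, stand beside the counts at 4 d of the single lists below. At 8 h against control 0 of the 86 passed in limma, beside 0.0801% of all genes. At an unadjusted p under 0.05, 8 of the 86 were higher and 1 was lower, beside 773 of 19785 probe sets in either direction. The median log2 change of the 86 at 4 d was 0.49, against 0.03 over all genes.

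Among other receptors for apoptotic cells, 4 of 10 tested genes rose and 0 fell, with a median log2 change of 0.59, and 5 rose in the blocked fit. Scarb1, a lipoprotein receptor with which Sertoli cells also bind phosphatidylserine, rose from 626 ± 160.4 to 1503 ± 183 (SD, n = 3 each; log2 change 1.25, limma adjusted p = 0.00448). Lrp1, a large endocytic receptor, rose by a log2 of 1.09 (adjusted p = 0.00642), the lysosomal protein Cd68 by 1.26 (0.013) and the collectin receptor Colec12 by 1.04 (0.0329). The count was 2 without 4 d replicate 1. The integrin subunits that serve Mfge8 did not pass: Itgav had a log2 change of 0.58 (limma adjusted p = 0.258) and Itgb5 of -0.15 (0.682), and Itgb3 was under the signal minimum.

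Among other bridging and eat-me molecules, 5 of 7 tested genes rose and 0 fell, with a median of 1.22. The complement subunit C1qa, which opsonises dying cells, rose from 241 ± 43.9 to 745 ± 155 (SD, n = 3 each; limma adjusted p = 0.00164), and C1qc rose by a log2 of 1.22 (adjusted p = 0.00177). The phosphatidylserine binder Anxa5 rose from a mean of 1071 to 2159.8 (n = 3 each; log2 change 0.99, SE 0.14, limma adjusted p = 0.00207). Lgals3, a galectin described as a ligand of Mertk, rose by 1.24 (adjusted p = 0.0043), and the 2 genes of that list that did not pass without a block were C1qb (1.69, 0.0692) and Calr (0.20, 0.643). In the blocked fit C1qb passed (adjusted p = 0.00136) and 6 of the 7 rose.

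In the list for phosphatidylserine exposure and don't-eat-me molecules, 3 of 9 rose and 0 fell, with a median of 0.18, and 4 rose and 1 fell in the blocked fit. The phospholipid scramblase gene Plscr1 rose by a log2 of 1.74 (limma adjusted p = 0.00492). Its mean signal was 44.85 in control and 63.17 at 8 h, under the signal minimum, and 216.9 at 4 d. It was therefore tested only through its 4 d arrays. The lipid flippase Atp11a rose by 1.09 (adjusted p = 0.0292) and Cd47, the don't-eat-me protein read by phagocytes, by 0.88 (0.0106). Xkr8, the scramblase cut open by caspases during apoptosis, had a log2 change of -0.11 (0.705). The 1 gene that fell in the blocked fit was Tmem30a, with a log2 change of -0.38 (limma adjusted p = 0.0568 without a block and 0.00503 with it).

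Downstream of the receptors, 5 of 21 genes of the engulfment machinery rose and 0 fell, with a median of 0.23, while the blocked fit called 9 higher and 1 lower. The small GTPase Rac1, which drives closure of the phagocytic cup, rose from 1260.1 ± 130 to 2526 ± 301 (SD, n = 3 each; log2 change 0.98, limma adjusted p = 0.00468). Its blood cell form Rac2 rose by 1.69 (adjusted p = 0.0115), its activator Elmo1 by 1.04 (0.00631) and Rab7a, which matures phagosomes, by 0.97 (0.00139). The partner of Elmo1 in that activator, Dock1, had a log2 change of -0.11 (0.842). The count of 5 became 3 without 4 d replicate 1.

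Of the signalling partners of TAM receptors, 3 of 13 rose and 0 fell, with a median of 0.36, and 4 rose in the blocked fit. Stat3 rose by a log2 of 1.34 (limma adjusted p = 0.00328), Akt1 by 0.65 (0.0257) and the phosphatase gene Ptpn11 by 0.59 (0.0411). The suppressor Socs3, which TAM signalling is known to induce, had a log2 change of 0.36 (0.495), and Socs1 was under the signal minimum. This count fell to 1 without control replicate 1, control replicate 2, 4 d replicate 1 or 4 d replicate 3.

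The vitamin K cycle, which makes the phosphatidylserine-binding domain of Pros1 and Gas6, was followed in a list with other Gla proteins. That list also held genes that belong to neither kind, among them Thbd and C4bpb. In it, 5 of 11 genes rose and 0 fell, with a median of 0.57, and 7 rose in the blocked fit. Vkorc1, the reductase that recycles vitamin K, rose by a log2 of 0.77 (limma adjusted p = 0.0232), while the carboxylase Ggcx itself had a change of 0.24 (0.662). Thbd rose by 0.96 (0.00989), Mgp by 0.91 (0.018) and Nqo1 by 0.89 (0.0165). C4bpb, which carries protein S in plasma, had a log2 change of -0.08 (0.883). The count fell to 0 without 4 d replicate 1, to 1 without control replicate 1 or 2, to 2 without 4 d replicate 3 and to 3 without 4 d replicate 2, and it was 1 with the medians of the tested probe sets made equal.

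In lipid handling after engulfment, 5 of 15 genes rose and 1 fell, with a median of 0.38, and 7 rose and 1 fell in the blocked fit. The cholesterol exporter Abcg1 rose from 288 ± 22.2 to 874 ± 141 (SD, n = 3 each; log2 change 1.49, limma adjusted p = 0.000633). Apoe rose by 1.19 (adjusted p = 0.00134) and the lipid droplet coat gene Plin2 by 0.91 (0.00413), while Acsl1, a fatty acid-activating enzyme, fell by 1.18 (0.00493). The count of 5 became 3 without control replicate 2, 4 d replicate 1 or 4 d replicate 3, and with the medians of the tested probe sets made equal.

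In whole testis, fewer cells of a type and less RNA per cell cannot be told apart, and markers of several cell types stood higher or lower at 4 d together with these genes. The counts that follow stand beside 7.63% higher and 5.19% lower of all genes in limma without a block, and 15.3% and 11.9% in the blocked fit. Of 14 tested Sertoli cell markers, 4 were higher and 1 was lower at 4 d (7 and 2 in the blocked fit), with a median log2 change of 0.36, and their summed signal was 38116 to 44467 in control, 42729.8 to 49138 at 8 h and 62567 to 80759 at 4 d. Among the defining genes, Wt1 had a log2 change of 0.24 (limma adjusted p = 0.454) and Amh of -0.08 (0.9). These were named for their place in the list, and neither was among the 4 higher markers, which are not named here. Of 18 macrophage and other leukocyte markers, 13 were higher and 2 were lower (16 and 2 in the blocked fit), with a median of 1.22 and a summed signal of 12951 to 13609 in control, 12854 to 13883 at 8 h and 19499.9 to 23549 at 4 d. Cd68 and Csf1r were among the 13 that were higher, while the 2 that were lower are not named here. Cd68 and C1qa stand in the lists above as well. Leydig cell markers had 2 of 12 higher and 0 lower (sum 19461 to 25963 in control and 27389 to 41043 at 4 d), and the blocked fit called 6 higher and 1 lower. Peritubular markers had 1 of 10 higher (2 higher and 1 lower in the blocked fit) and endothelial markers 1 of 9 higher (2 in the blocked fit), which without a block is near the share of all genes. Platelets and fat cells, other known sources of protein S or Cd36, were thinly measured, with 1 of 3 platelet markers and 1 of 2 fat cell markers higher (in the blocked fit the other fat cell marker was lower) and with the fat cell genes Adipoq, Fabp4 and Plin1 under the signal minimum. Red cell markers had 2 of 3 higher (sum 3166 to 5107 in control and 6529.6 to 11394 at 4 d). Markers of round spermatids had 3 of 8 lower (5 in the blocked fit). Those of spermatogonia had 0 of 4 past the threshold in either direction (1 higher in the blocked fit), and those of spermatocytes 0 of 6 in both fits. At an unadjusted p under 0.05 without a block, 1 spermatogonial marker was higher and 1 spermatocyte marker was lower, beside 14% higher and 8.77% lower of all probe sets. The part of these cell types in the changes of Pros1, Mfge8 and Axl was not tested.

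The genes most alike in pattern were found by Pearson's r of the log2 signal over the 8 arrays among 11234 genes, as a description without a test, since all points share the same arrays and groups. For Pros1 they were Haus7 (r = 0.995), Olfml3 (0.992) and Rin2 (0.992). Olfml3, a secreted protein, had a mean signal of 221 in control, 209 at 8 h and 1124 at 4 d, and so stood at 1 level in control and at 8 h and above it at 4 d, as Pros1 did. For Mfge8 they were Map4k4 (0.989), Anxa11 (0.988) and Rhoj (0.988), and Rhoj had a mean of 319 in control, 347 at 8 h and 616 at 4 d. For Axl they were Mocs2 (0.989), Fnip2 (0.986) and Hsd17b12 (0.983), and Mocs2 had a mean of 348 in control, 439 at 8 h and 758 at 4 d, with the 8 h mean between the others as for Axl.

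**Figure D3:**
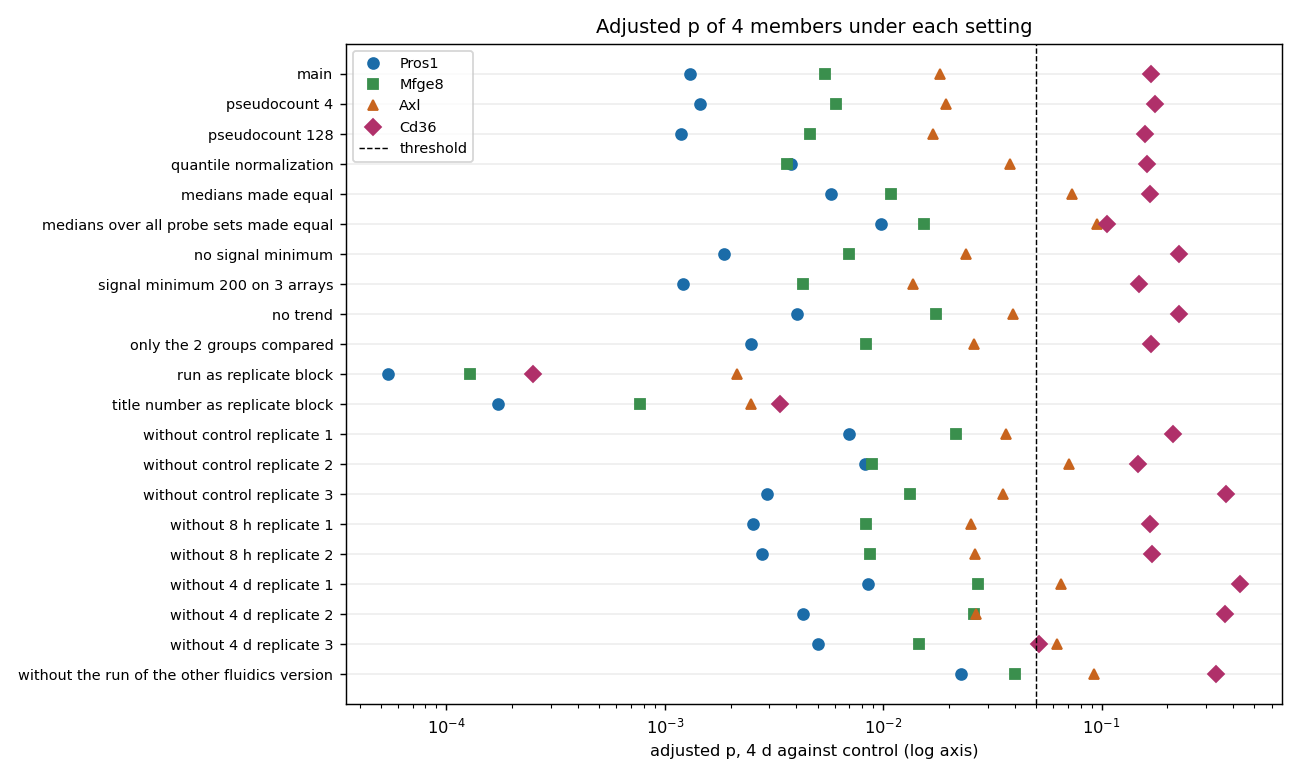
Adjusted p (log axis) of Pros1, Mfge8, Axl and Cd36 at 4 d against control under the main setting and 20 alternatives, with the threshold of 0.05 as a dashed line. Pros1 and Mfge8 lie below the threshold throughout, Axl crosses it in 6 of the 20, and Cd36 lies below it only in the 2 fits with a replicate block.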

How the data were processed

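RNA of whole rat testis was measured on 8 Affymetrix one-colour arrays. The authors deposited 1 intensity for each probe set, made in MAS 5.0 per the labels' texts (which also name GeneSpring 7.2), and not as a logarithm. The 2% trimmed mean of the deposited values was 250.1 on every array. Detection calls and probe sequences were not used here. Each array was scaled to a 2% trimmed mean of 500, 57 control probe sets were left out, and log2(signal + 32) of probe sets at or above a signal of 100 on 2 or more arrays was fitted over all 8 arrays by limma 3.58.1 in R 4.3.3 (lmFit, eBayes with a trend), with Benjamini-Hochberg adjustment. The fit was checked on simulated data. Folds are 2 to the power of the log2 change. Genes were named from 20826 probe sets with 1 symbol (436 had several and 9780 had none), and 20758 identifiers matched RefSeq (0 symbols updated). Promoter windows are from RefSeq, build GRCr8.

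Samples were grouped by title, since the descriptions call all 8 normal. Hybridisation runs were read from the settings files of the arrays. Replicate numbers of control and 4 d arrays coincide with the runs. The deviations from the group means of same-numbered control and 4 d arrays correlated at 0.363, 0.353 and 0.507. These arrays were therefore read as paired through the run, whereas 8 h replicate 2 lay in run 3. The main fit took the group only and did not use that pairing. Values from a fit with the run as a block, called the blocked fit, stand beside most of the calls and counts at the adjusted threshold that they change.

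The 7 genes and the lists were chosen with earlier results of these data known. The named genes are the 7 with every probe set. Of each list they are up to 4 genes with the largest change at 4 d among those past the threshold in any comparison. For each of the 7 genes whose brightest probe set passed, the 3 most alike were added, and of cell type markers up to 3 defining genes. Itgav, Itgb5, Itgb3, Xkr8, Tmem30a, Dock1, Socs1, Socs3, Ggcx, C4bpb, C1qb and Calr fall outside that rule and were chosen for their roles or as small counts after their values were seen. The motifs were chosen after the data were seen. Alternatives were another pseudocount (4 or 128), normalization, signal minimum (none, or 200 on 3 arrays), no trend, only the groups compared, 2 replicate blocks, and arrays or run 2 left out.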

Additional observations from a re-analysis of the deposited data

Results flagged for a closer look

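The change of Pros1 differed between the times: at 4 d it exceeded that at 8 h by a log2 of 1.34 (SE 0.19, limma adjusted p = 0.00406), and the 4 d arrays were higher in both runs that held an 8 h array, by 1.39 and 1.52. The change of Mfge8 differed likewise, by a log2 of 0.85 (SE 0.17, limma adjusted p = 0.0183), and by 0.67 and 0.89 within those runs. The probe set 1386901_at, whose annotation gives several symbols, 1 of them among the 7 genes, stood outside the rule and is not assigned to a gene here. It read 1887, 2005 and 1394 in control, 2023 and 1345 at 8 h, and 3799, 3478 and 2697 at 4 d, with all 4 d arrays above all others. Its log2 change at 4 d against control was 0.91 (SE 0.20, limma adjusted p = 0.0203). Groups of 3 and 2 arrays are too small to test single arrays as outliers.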

How the results depend on the processing

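Over 20 alternatives Pros1 stayed past the threshold at 4 d against control (log2 change 1.13 to 1.44, highest limma adjusted p = 0.0227) and against 8 h (highest 0.0429), and so did Mfge8 against control (0.76 to 1.02, highest 0.0401). Axl against control lost its call in 6 of them and Mfge8 against 8 h in 6. Among those were the medians over all probe sets made equal, an alternative chosen after seeing the data (0.0954 for Axl and 0.0736 for Mfge8). Member counts moved as follows. Higher at 4 d than at 8 h were 2 in the main fit, 1 with those medians, 1 without run 2, 4 with the run as a replicate block, 3 with the title number as a block, and 1 to 2 when single arrays were left out. Lower at 4 d than in control was 0 in the main fit and 1 with either replicate block (Gas6 1369735_at, adjusted p = 0.0378 with the title number). Apart from Axl and Cd36 against 8 h and Cd36 and Gas6 1369735_at against control, the run as a block changed no other call of these probe sets. Uncalled values of Cd36, Tyro3, Mfge8 and Pros1 at 8 h, and of Gas6 1383047_at, Gas6 1392784_at and Mertk, changed sign under some alternatives.

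Over all probe sets, 1218 higher and 738 lower at 4 d than in control became 1137 and 992 with quantile normalization, 781 and 987 with the medians of the tested probe sets made equal, 739 and 413 with the medians over all probe sets, 2632 and 1819 with the run as a block, 2118 and 1376 with the title number as a block, and 346 and 170 without run 2. They were 582 to 1139 and 317 to 674 when single arrays were left out. Making the medians of the tested probe sets equal moved the median change of all probe sets at 4 d from 0.04 to -0.10. The counts of higher genes at 4 d against control also varied over these alternatives and with probe sets averaged per gene. They ranged from 2 to 5 for other receptors (4 in the main fit) and 3 to 6 for bridging and eat-me molecules (5). For the list of phosphatidylserine exposure and don't-eat-me molecules, the range was 1 to 4 (3 in the main fit, Cd47 among them). It was 3 to 9 for the engulfment machinery (5 in the main fit) and 1 to 4 for TAM signalling (3). The list of the vitamin K cycle and other Gla proteins had 0 to 7 (5 in the main fit), and lipid handling had 2 to 7 (5). The cause of these differences was not tested. Array number and the low signal of Mertk limit what could be detected.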
